A study of Mus musculus with 9 samples.

Results

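The comparison described here is of whole pancreas from mouse embryos labelled as mutant for both Grg3 and Grg4 against whole pancreas of control embryos, at embryonic stage e18.5. It rests on 6 of the 9 libraries of the series, 3 in each group, and the groups were taken from the sample titles. Every embryo, controls included, carried Pdx1:Cre, a Cre recombinase under the promoter of Pdx1, a transcription factor of the early pancreatic epithelium, on a strain given as mixed C57BL6. The controls carried no other labelled allele, and the double mutant group carried Pdx1:Cre with Grg3 and Grg4. The remaining 3 libraries, from embryos labelled Pdx1:Cre with Grg3 alone, served as a second reference. The labels give neither the kind of the Grg alleles nor the litters. Cre driven by Pdx1 acts in the pancreatic epithelium, and mesenchyme, vessels, nerves and blood of the dissected organ lie outside its reach. The p-values set each group difference against the spread between libraries within groups, estimated over all 9 libraries. They do not account for litters, which are not known.

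Grg3 and Grg4 are mouse names for the Groucho proteins encoded by Tle3 and Tle4. Groucho proteins do not bind DNA themselves. They are recruited by DNA-bound factors such as Nkx2-2, Hes proteins, Tcf and Lef factors and forkhead proteins, and they repress the genes next to those sites. In the pancreas, acinar cells make digestive enzymes, ducts carry them, and islet cells make hormones, and the liver, stomach and duodenum arise from adjoining foregut endoderm.

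Promoters of 6 genes named in the results on foregut, liver and acinar genes are shown: Foxa1 and Gast, Alb and Fga, and Prss1 and Ctrl. They are given as a description, and no expression result rests on them. They come from RefSeq on GRCm38.p6, and each runs from 250 bases before to 50 bases after the start of transcription, 5' to 3' on the strand of the gene. Capitals mark the forkhead core TGTTTAC and the HNF1 core GTTAAT, searched on both strands, and these motifs do not overlap in the windows shown.
Foxa1, chr12:57546062-57546361, minus strand: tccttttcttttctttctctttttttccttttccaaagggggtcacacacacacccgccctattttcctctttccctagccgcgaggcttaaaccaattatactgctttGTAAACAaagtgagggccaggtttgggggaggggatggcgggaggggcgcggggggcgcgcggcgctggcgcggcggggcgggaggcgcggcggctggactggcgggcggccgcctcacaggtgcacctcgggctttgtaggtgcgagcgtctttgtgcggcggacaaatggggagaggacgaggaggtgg
Gast, chr11:100334157-100334456, plus strand: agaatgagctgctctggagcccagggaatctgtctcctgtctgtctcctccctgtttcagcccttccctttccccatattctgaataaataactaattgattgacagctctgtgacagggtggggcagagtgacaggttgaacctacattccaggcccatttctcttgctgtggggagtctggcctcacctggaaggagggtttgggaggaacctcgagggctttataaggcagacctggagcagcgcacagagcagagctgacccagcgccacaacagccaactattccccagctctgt
Alb, chr5:90460620-90460919, plus strand: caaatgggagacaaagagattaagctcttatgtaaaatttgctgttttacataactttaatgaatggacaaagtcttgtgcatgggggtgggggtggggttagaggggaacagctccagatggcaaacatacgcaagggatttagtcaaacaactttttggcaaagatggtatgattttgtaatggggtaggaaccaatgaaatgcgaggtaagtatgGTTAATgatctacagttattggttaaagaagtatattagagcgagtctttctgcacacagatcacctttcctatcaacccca
Fga, chr3:83025903-83026202, plus strand: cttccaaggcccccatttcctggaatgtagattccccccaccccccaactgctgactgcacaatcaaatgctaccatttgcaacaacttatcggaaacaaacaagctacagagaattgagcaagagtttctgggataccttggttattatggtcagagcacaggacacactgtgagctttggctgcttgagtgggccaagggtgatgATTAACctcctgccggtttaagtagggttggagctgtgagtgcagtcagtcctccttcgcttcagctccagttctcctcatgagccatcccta
Prss1, chr6:41458680-41458979, plus strand: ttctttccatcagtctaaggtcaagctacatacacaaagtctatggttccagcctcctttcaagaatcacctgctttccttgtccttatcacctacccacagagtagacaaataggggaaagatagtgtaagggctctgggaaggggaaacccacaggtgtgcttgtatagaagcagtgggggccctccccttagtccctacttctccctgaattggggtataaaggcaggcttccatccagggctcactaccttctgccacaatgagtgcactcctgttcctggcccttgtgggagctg
Ctrl, chr8:105933813-105934112, minus strand: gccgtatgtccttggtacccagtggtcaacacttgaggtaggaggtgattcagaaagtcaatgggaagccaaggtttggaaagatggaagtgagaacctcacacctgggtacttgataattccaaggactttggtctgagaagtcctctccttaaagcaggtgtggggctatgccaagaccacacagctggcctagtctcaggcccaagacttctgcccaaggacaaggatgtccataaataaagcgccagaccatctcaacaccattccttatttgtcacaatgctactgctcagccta
The promoter of Foxa1, which encodes a forkhead protein, held 1 forkhead core, and those of the liver genes Alb and Fga held 1 HNF1 core each. The windows of Gast, Prss1 and Ctrl held neither string of letters. Over 32851 mouse promoters of the same length, 3.65% held the forkhead core and 7.1% the HNF1 core, so that a match is a description of these letters and not a site.

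Depth was alike in the groups, with 46817453 to 61214013 counts on genes per library. Replicates were separate libraries, since a chi-square per degree of freedom of 17.1 to 57.8 separated any pair of a group. The groups were not balanced for embryo sex as Xist and Ddx3y show it: all 3 double mutant libraries and control replicate 1 were male, and control replicates 2 and 3 were female. Double mutant replicate 2 held 3970 CPM (counts scaled to the total of the library) of cardiac and skeletal muscle genes, against 267 and 153 CPM in replicates 1 and 3 and 98.1 to 122 CPM in the controls. Its smooth muscle genes summed to 3008 CPM, against 1705 and 1301 CPM in replicates 1 and 3. Pancreatic genes were present in all 6 libraries, with 1538 to 2041 counts of Pdx1 and 589068 to 1105986 counts of the acinar carboxypeptidase gene Cpa1, and the gastric marker Gkn2 was at 0 counts in all 6.

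Neither Tle3 nor Tle4 RNA was lower in the libraries labelled double mutant, and the labels do not give the kind of allele. Tle3 (chromosome 9, 61372366 to 61418497, GRCm38) was measured at 63.1, 67.7 and 63.7 CPM in the controls and at 131, 126 and 146 CPM in the libraries labelled double mutant. Every one of the latter lay above every control. Tle3 was higher by 1.05 (SE 0.09) on the log2 scale, with an edgeR adjusted p of 0.000557, and it was called under each of the 15 alternative settings tried. Tle4 (chromosome 19, 14448150 to 14598051) was at 7.85, 7.79 and 7.68 CPM in the controls and at 10.7, 15.5 and 8.63 CPM in the double mutant libraries, so that the groups did not overlap. The Tle4 difference of 0.58 (SE 0.21) did not pass, with an edgeR adjusted p of 0.155. Counts were made per whole gene, and a transcript that lacks some exons is still counted. The directions below are therefore between libraries as labelled.

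Of the other Groucho genes, Tle2 rose from 49.4, 41.5 and 44.9 CPM to 68.2, 57.3 and 74.0 CPM, a log2 change of 0.55 (SE 0.11) with an edgeR adjusted p of 0.0342. Tle2 lost its call when any 1 of the libraries other than double mutant replicate 2 was left out, and with embryo sex in the fit (adjusted p = 0.171). Tle1 changed by 0.17, Tle6 by 0.11 and Aes, a short Groucho protein without the C-terminal repeats, by -0.16, and none of these passed (edgeR adjusted p = 0.227, 0.749 and 0.436). Among 22 tested genes of the Groucho family and its DNA-binding partners, Tle3 and Tle2 rose and none fell. Of all genes tested 1.24% were called higher and 0.897% lower.

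Across the genome, 410 of 19166 tested genes were called at an edgeR adjusted p under 0.05, which is 2.14% of them: 238 higher (1.24%) and 172 lower (0.897%) in the double mutant libraries. Of these, 130 rose and 87 fell by 2-fold or more. Counts of list members called higher or lower, given below, stand beside the 1.24% and 0.897% of all genes. The number of genes called depended on the libraries. With embryo sex as a term in the fit 30 genes were called (0.157%), and without the double mutant library rich in muscle RNA 160 were called (0.814%). Without control replicate 2 it was 55, and without control replicate 3 it was 50.

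A set of 25 genes (0.13%) was called in the fit reported here and under all 15 alternatives. Of these, 11 rose, among them Foxa1, Nkx6-3, Ttc6, Slc26a3, Gast, Gm8730, Cldn11, Gm21781, Tle3 and Ppox. The 14 that fell were E030030I06Rik, Raet1d, Rps26-ps1, Raet1e, Gm5771, Gm10334, Prss1, Ctrl, Prss3, Rpl34-ps1, Reg3d, Tff2, Ptger3 and Clic6. Membership of this set was computed after the values were seen. The set holds a forkhead factor, gastric and acinar genes, 3 genes of 1 stretch of chromosome 10, and 3 pseudogenes.

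**Figure D1:**
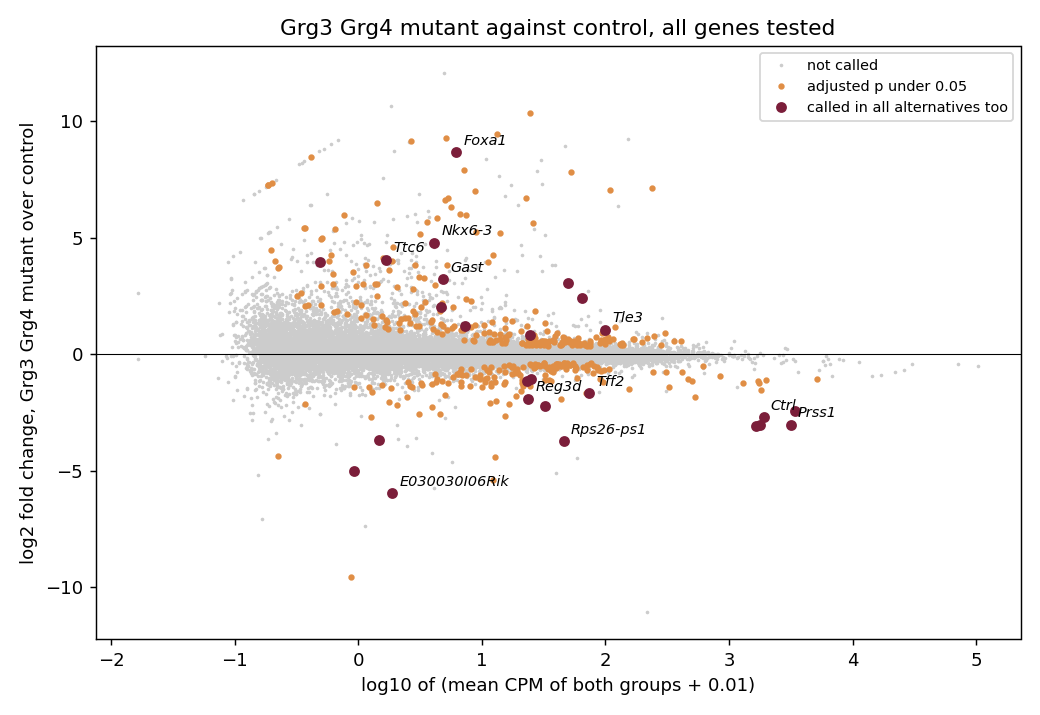
Each point is 1 of the 19166 tested genes, with the log10 of its mean CPM over both groups plus 0.01 on the horizontal axis and the log2 fold change, Grg3 Grg4 mutant over control, on the vertical axis. The 410 called genes are orange, and the 25 called under all alternatives are dark red, with Foxa1 at 8.66 near the top and the abundant trypsinogen gene Prss1 at -3.03.

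Foxa1, a pioneer factor that opens chromatin in foregut endoderm and liver, went from near absent to clearly detected. The gene (chromosome 12, 57540628 to 57546916) was at 0.0417, 0.0209 and 0.0220 CPM in the controls and at 12.3, 11.4 and 13.5 CPM in the double mutant libraries. This is 4 counts over the 3 controls against 2118 over the 3 double mutants, a ratio of 433 with an exact 95% counting interval of 169 to 1591. The edgeR adjusted p was 1.29e-07, and the call held under all 15 alternatives. The 3 libraries labelled Grg3 mutant held 2215 counts, and the difference between the mutant groups was -0.04 (edgeR adjusted p = 0.905). The related factors were well expressed in the controls and lower in the double mutants. Foxa2, which acts in endoderm and in islet cells, fell from 43.1, 44.5 and 37.5 CPM to 31.4, 23.1 and 29.9 CPM, a log2 change of -0.57 (SE 0.13, edgeR adjusted p = 0.0488), and lost its call when any 1 of the 6 libraries was left out (adjusted p up to 0.202 over all alternatives). Foxa3 was at 34.0, 32.1 and 33.7 CPM against 26.8, 18.0 and 23.3 CPM, and its change of -0.55 did not pass (edgeR adjusted p = 0.156).

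Within 1 Mb of Foxa1, 6 genes were tested, Foxa1 itself among them, and 2 were called, against 2.14% of all genes. The window was placed around Foxa1, so that the call of Foxa1 was given in advance. The other call was Ttc6, which starts next to Foxa1 on the opposite strand (chromosome 12, 57564113 to 57737928). Ttc6 was chosen after its values were seen. Ttc6 was at 0.188, 0.105 and 0.264 CPM in the controls and at 2.98, 2.09 and 4.33 CPM in the double mutants, a log2 change of 4.06 (SE 0.41, edgeR adjusted p = 0.00198). Every double mutant library lay several times above the highest control. The neighbours Mipol1, Prps1l3, Sstr1 and Clec14a were not called.

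Gastric genes split. Gast (chromosome 11, 100334407 to 100336996), which encodes the hormone gastrin of the gastric antrum, was at 0.939, 0.712 and 1.12 CPM in the controls and at 10.9, 7.62 and 7.61 CPM in the double mutants. The gene rose by 3.23 (SE 0.21) on the log2 scale, with an edgeR adjusted p of 0.000149. Nkx6-3 (chromosome 8, 23153269 to 23158948), a homeobox factor of antral gastrin cells, was at 0.355, 0.293 and 0.198 CPM against 9.45, 5.29 and 8.96 CPM, a rise of 4.79 (SE 0.36, edgeR adjusted p = 0.000307). For both genes the lowest double mutant library lay several times above the highest control. Tff2, a trefoil peptide of gastric mucous cells and of pancreas, went the other way, from 116, 134 and 89.4 CPM to 30.9, 44.1 and 30.4 CPM, a fall of 1.69 (SE 0.21, edgeR adjusted p = 0.00692). Of the 14 tested genes of the stomach list these 3 were called, against 2.14% of all genes. The 3 were called with embryo sex in the fit and without double mutant replicate 2 as well. Among markers of gastric tissue, Gkn2 had 0 counts in the 3 double mutant libraries, and Gkn1 and Atp4b had 0 to 2 per library. The mucin Muc6 had 195, 55 and 82 counts against 31, 31 and 59 in the controls, and the proton pump gene Atp4a 279, 374 and 278 against 212, 316 and 163. Scaled to CPM the groups overlapped for Muc6 and Atp4a, and neither was called (edgeR adjusted p = 0.354 and 0.861).

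Of 17 tested intestinal genes, Apob, which liver also makes, rose and Zg16, a zymogen granule lectin that acinar cells also make, fell. Both lost their call with embryo sex in the fit. The intestinal master regulator Cdx2 had 0 to 4 counts per library in either group. The chloride and bicarbonate exchanger gene Slc26a3, which was on no list and was chosen after its values were seen, rose from 0.0417, 0.0628 and 0.066 CPM to 0.992, 0.882 and 0.837 CPM (edgeR adjusted p = 0.000711). This was 8 counts over the controls and 156 over the double mutants, a ratio of 15.9 (exact 95% counting interval 7.9 to 37.6). All 3 double mutant values of Slc26a3 lay above the controls, at levels under 1 CPM. Vwa2, which encodes a matrix protein and was also chosen afterwards, rose from 0.459, 0.335 and 0.33 CPM to 3.12, 8.60 and 4.24 CPM (3.82 on the log2 scale, edgeR adjusted p = 0.00321). With sex in the fit Vwa2 lost its call (adjusted p = 0.0515).

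**Figure D2:**
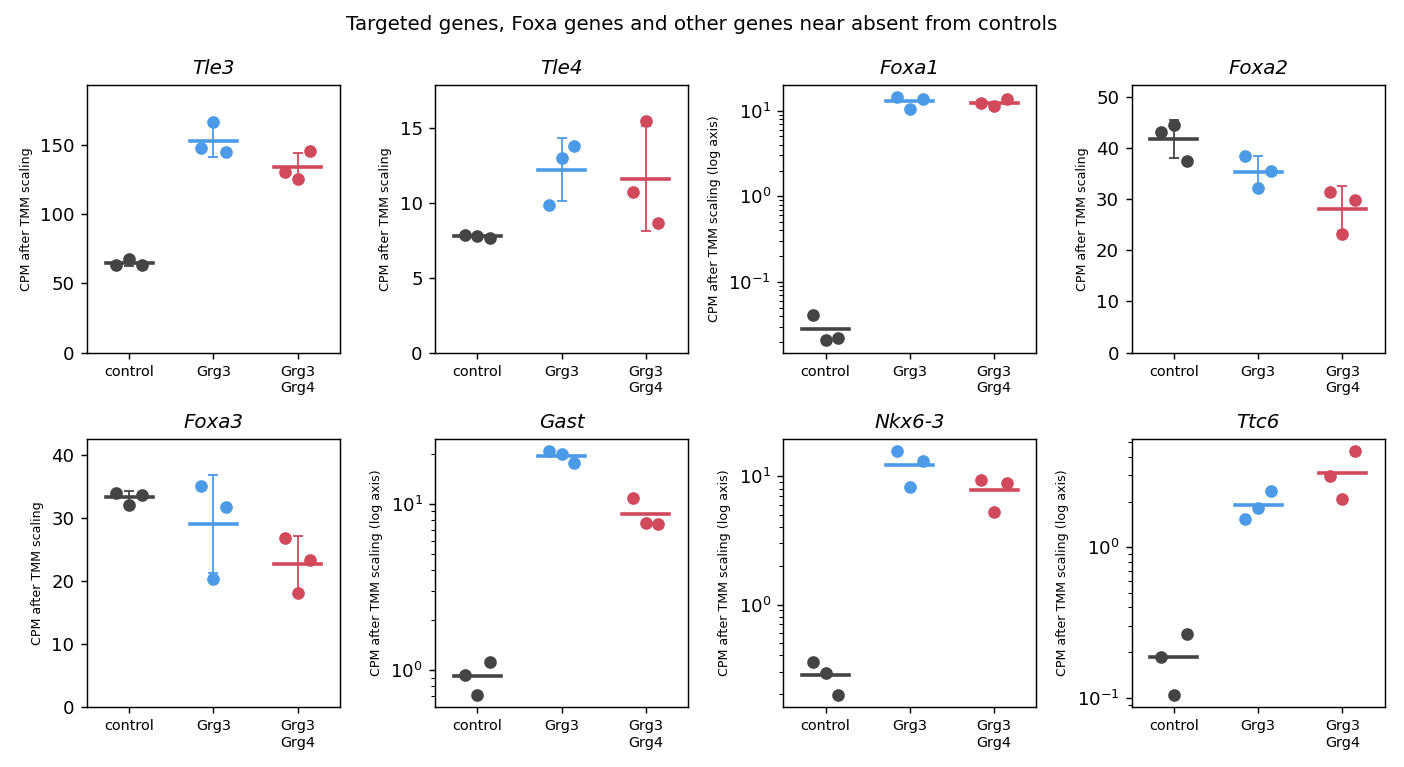
Each panel plots CPM of 1 gene in the 9 libraries, with a horizontal line at the mean of each group of 3 and SD bars on the linear axes; the panels of Foxa1, Gast, Nkx6-3 and Ttc6 have log axes and no SD bars. Tle3 lay at 126 to 146 CPM in the double mutants against 63.1 to 67.7 CPM in the controls, and Foxa1 at 11.4 to 13.5 CPM against 0.0417 CPM or less.

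Many of the steepest rises among called genes were of liver genes, whose products hepatocytes secrete into plasma. Of 27 tested genes of the liver list 14 rose, against a background of 1.24%, and none fell. The median log2 change of the list was 4.11, against 0.01 over all genes tested, and 24 of the 27 had all 3 double mutant libraries above all 3 controls, which held for 14.9% of all genes. The summed level of the list was 579 to 602 CPM in the controls and 1461, 1543 and 2679 CPM in double mutant replicates 1, 2 and 3. Bulk values of this kind do not tell a larger number of cells of a type from more RNA per cell.

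Alb (chromosome 5, 90460897 to 90476602), the gene of serum albumin, was at 5.47, 2.37 and 2.49 CPM in the controls and at 257, 362 and 811 CPM in the double mutants. It rose by 7.11 (SE 1.03) on the log2 scale, with an edgeR adjusted p of 0.0120. Its neighbour Afp, which encodes the fetal serum protein alpha-fetoprotein, was at 2.57, 0.943 and 1.39 CPM against 137, 162 and 351 CPM, a rise of 7.05 (SE 1.01, edgeR adjusted p = 0.012). In both genes replicate 3 was highest and the double mutant libraries differed among themselves by more than the controls did. The fibrinogen chains moved alike. Fga had 5 counts in the controls and 8052 in the double mutants, a ratio of 1317 (exact 95% counting interval 564 to 4058), at 18.2, 38.8 and 89.9 CPM. Fgg had 5 and 4347 counts, a ratio of 711 (304 to 2191), and Fgb rose by 5.61 from 0.712 to 1.36 CPM to 25.1 to 88.2 CPM. The edgeR adjusted p was 0.0193 for Fga, 0.0195 for Fgg and 0.0275 for Fgb.

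Lipoprotein genes rose as well. Apoa1, the main protein of high-density lipoprotein, was at 0.898, 0.0838 and 0.308 CPM against 26.3, 35.7 and 73.8 CPM, a log2 change of 6.70 (SE 1.15, edgeR adjusted p = 0.0222). Apoa2 changed by 6.02 and Apob, the structural protein of low-density lipoprotein, by 6.99 (edgeR adjusted p = 0.0151 and 0.0157). Kininogen (Kng1) had 8 counts in the controls and 2381 in the double mutants, a ratio of 243 (123 to 565), and Apoh had 2 and 1675, a ratio of 685 (189 to 5661). Plg, the precursor of the fibrin-cleaving protease plasmin, was at 0.23, 0.105 and 0.066 CPM against 6.04, 7.75 and 19.1 CPM (6.33, edgeR adjusted p = 0.0142). Itih4, a plasma protease inhibitor heavy chain, changed by 6.70 (edgeR adjusted p = 0.0195). The carrier protein gene Ahsg was at 1.34, 0.0419 and 0 CPM against 41.5, 82.8 and 190 CPM (edgeR adjusted p = 0.0269). Serpina1c and Serpina1e, 2 of the near-identical alpha-1-antitrypsin copies whose reads counting may split, rose by 2.88 and 5.20.

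In the libraries labelled Grg3 mutant Alb was at 636, 37.9 and 220 CPM, and none of the 27 liver genes was called between the mutant groups by edgeR. The liver calls depended on the controls and on sex. With sex in the fit edgeR called none of the 27. An unadjusted p under 0.05 was reached by 21 of them and by 2828 of all 19166 tested genes. The median of the 27 was 2.91. Without control replicate 2 none was called, without control replicate 3 it was 1, without control replicate 1 it was 3, and without 1 of the double mutants 12 or 13. DESeq2 called 21 and limma voom 9, each in the direction given here. Of 19 tested transcription factors of liver and foregut, Foxa1 rose, Foxa2 fell, and the median change was -0.08.

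**Figure D3:**
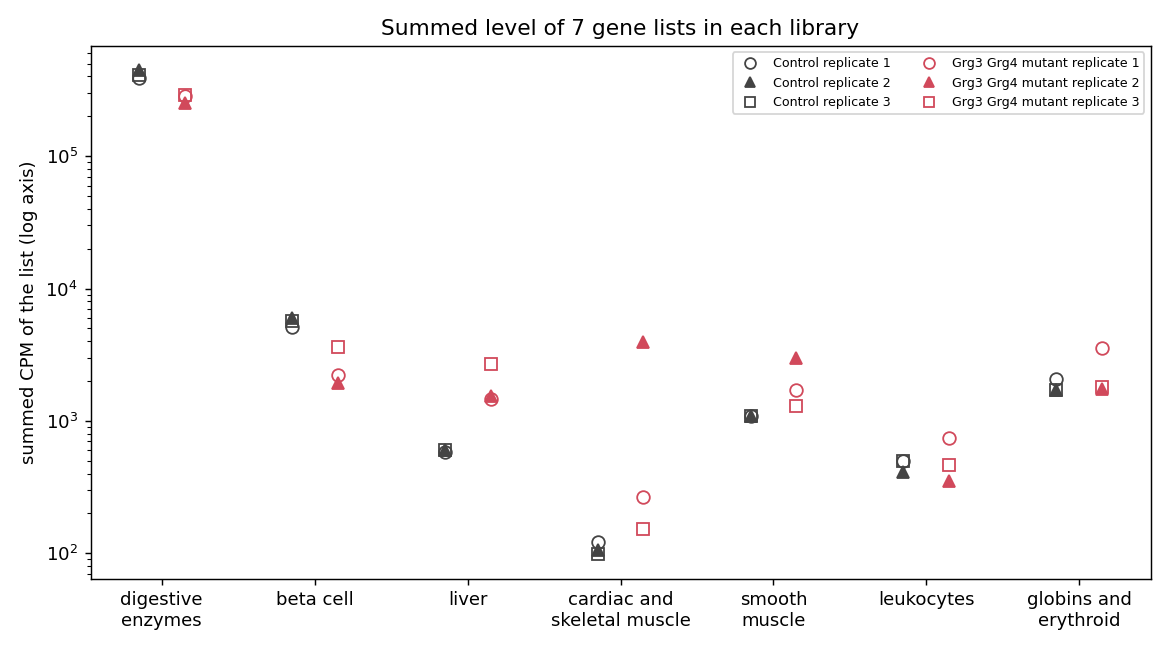
Summed CPM of the genes in 7 lists is plotted on a log axis for each of the 6 libraries, black for control and red for Grg3 Grg4 mutant, with a different marker for each replicate. Digestive enzymes and beta cell genes were lower and liver genes higher in all 3 mutant libraries, and replicate 2 stood apart for cardiac and skeletal muscle at 3970 CPM.

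Digestive enzyme genes, the main product of acinar cells, were lower. Of 28 tested, 9 fell, against a background of 0.897%, none rose, and all 28 had a change below 0. The median was -0.71, and 22 of 28 had all double mutant libraries below all controls, which held for 14.2% of all genes. The list summed to 389867, 446520 and 411803 CPM in the controls and to 283999, 253884 and 291075 CPM in the double mutants. So large a share of all counts bears on scaling, and leaving these genes out of the scaling left the same 9 falls.

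The steepest falls were in trypsinogens, the precursors of trypsin. Prss1 (chromosome 6, 41458932 to 41463786) was at 5621, 5784 and 5443 CPM in the controls and at 843, 681 and 537 CPM in the double mutants. The change was -3.03 (SE 0.27), with an edgeR adjusted p of 0.000807. The log2 changes of Gm5771, Gm10334 and Prss3 were -3.08, -3.03 and -2.44 (edgeR adjusted p = 0.000478, 0.00278 and 0.00321); Gm5771 and Gm10334 were named by the rule for large falls. These genes lie within 1 cluster on chromosome 6 and are near-identical copies, so that reads may have been split between them and single values are uncertain. Summed over 8 trypsinogen genes, the level was 34806 ± 1847 CPM in the controls (SD, n = 3) and 15988 ± 2300 CPM in the double mutants, 2.18-fold lower. The sum thus fell less than its members Prss1 and Prss3 did.

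Ctrl (chromosome 8, 105932003 to 105933862), a chymotrypsin-like protease, fell from 2967, 3493 and 3441 CPM to 485, 473 and 577 CPM. The change was -2.69 (SE 0.22), with an edgeR adjusted p of 0.000469. Neither group spread far, and every double mutant library lay several times below the lowest control. The lipase Pnliprp2 fell from 2368, 2752 and 2244 CPM to 1034, 952 and 1102 CPM (-1.25, edgeR adjusted p = 0.0084). Phospholipase Pla2g1b fell by 1.11, trypsinogen Try4 by 1.16, ribonuclease Rnase1 by 1.05 and the kallikrein Klk1 by 1.22 on the log2 scale (edgeR adjusted p = 0.0277, 0.0195, 0.0358 and 0.0331). Cpa1 was at 23078, 23168 and 19796 CPM against 12238, 11682 and 12020 CPM, and its change of -0.88 did not pass (edgeR adjusted p = 0.0952). Ctrl, Prss1 and Prss3 were the members still called with sex in the fit, and 3 to 8 members were called when 1 library was left out.

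Acinar accessory genes showed 4 falls and 1 rise among 23 tested, against 0.897% called lower and 1.24% called higher of all genes. The acinar water channel Aqp12 fell from 208, 248 and 224 CPM to 77.3, 76.2 and 89.9 CPM (-1.48, SE 0.19, edgeR adjusted p = 0.00695). The granule proteins Zg16 and Sycn fell by 1.16 and 1.11, and the protease inhibitor Serpini2 by 1.08 (edgeR adjusted p = 0.0197, 0.0197 and 0.0298). Aqp8, another acinar water channel, rose from 65.7, 88.5 and 66.9 CPM to 179, 158 and 159 CPM (1.16, edgeR adjusted p = 0.0457). The acinar transcription factor Ptf1a was at 37.4, 39.4 and 36.1 CPM against 40.2, 35.3 and 39.4 CPM, and the groups overlapped (0.03, edgeR adjusted p = 0.96). Without any 1 of the libraries other than double mutant replicate 3, Aqp12 alone of this list was called, and with sex in the fit its adjusted p was 0.0543. Tmed11, a secretory pathway gene chosen after its values were seen, fell from 65.1, 67.3 and 75.3 CPM to 23.0, 14.5 and 16.8 CPM (-1.94, edgeR adjusted p = 0.00868). Tmed11 lost its call without control replicate 3 and with sex in the fit (adjusted p = 0.0725).

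The Reg family encodes secreted lectins made by acinar cells, in larger amounts on injury. Reg3d fell from 38.1, 38.9 and 35.9 CPM to 10.8, 9.34 and 9.81 CPM (-1.91, SE 0.22, edgeR adjusted p = 0.00463). Reg1 fell from 756, 925 and 786 CPM to 203, 245 and 246 CPM (-1.83, edgeR adjusted p = 0.0296), and Reg2 was lower at under 1 CPM without passing (-2.56, adjusted p = 0.0627). With Tff2, which this list also holds, 3 of 13 tested members fell and none rose, against 0.897% and 1.24% of all genes. Reg3d and Tff2 were called under all 15 alternatives and Reg1 under 7.

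**Figure D4:**
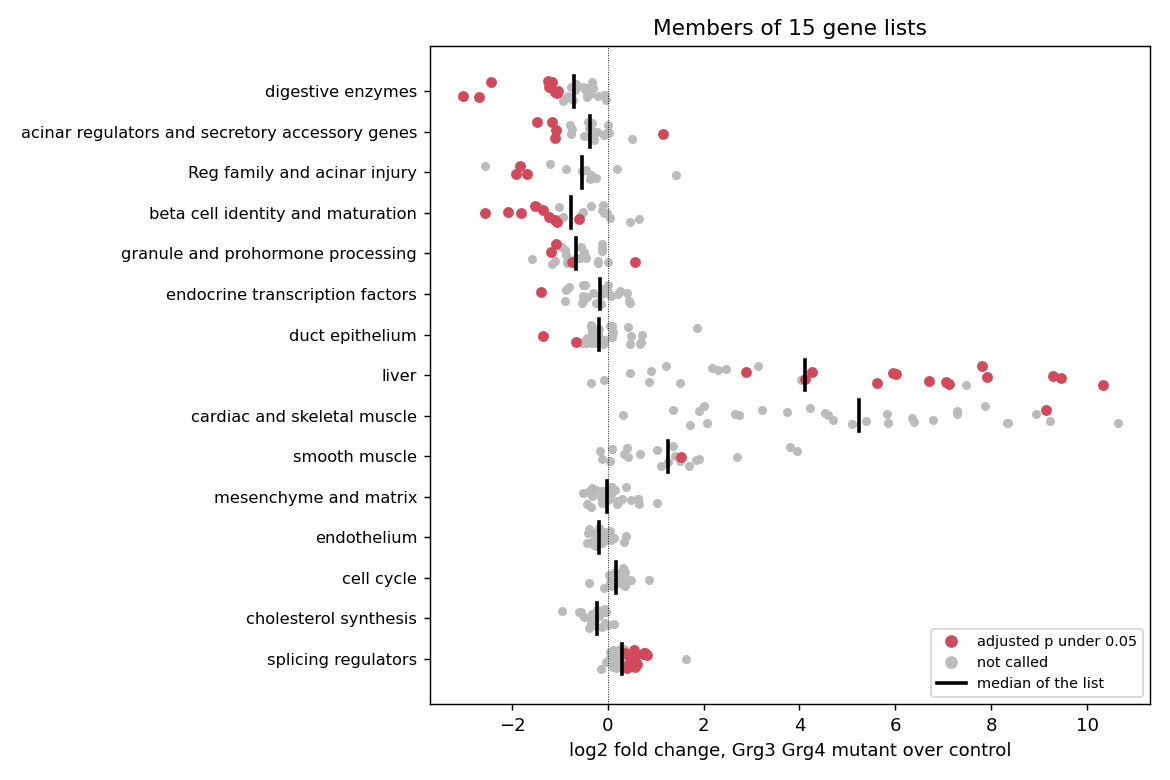
Each point is 1 gene of a list, placed by its log2 fold change, Grg3 Grg4 mutant over control, on the horizontal axis, and red points passed the test at an adjusted p under 0.05. The black bar is the median of the list: -0.71 for digestive enzymes, 4.11 for liver and 5.24 for cardiac and skeletal muscle, where replicate 2 was highest.

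Genes of beta cells, the islet cells that secrete insulin, were lower. Of 24 tested, 9 fell (0.897% of all genes did) and none rose, with a median of -0.77. All double mutant libraries lay below all controls for 14 of the 24, and for 14.2% of all genes. The summed level was 5127, 5945 and 5734 CPM in the controls against 2240, 1920 and 3609 CPM, with replicate 3 the nearest to control. The rodent insulin gene Ins2 fell from 2489, 2873 and 2699 CPM to 734, 654 and 1418 CPM (-1.52, SE 0.30, edgeR adjusted p = 0.0353). Its companion Ins1 was at 1487, 1786 and 1766 CPM against 485, 421 and 969 CPM and just missed (-1.43, adjusted p = 0.0551). Both insulin genes were lower in 3 of 3 double mutant libraries.

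The receptor for the gut hormone GLP-1, Glp1r, fell from 16.8, 18.1 and 21.5 CPM to 3.75, 3.29 and 6.35 CPM (-2.08, SE 0.26, edgeR adjusted p = 0.00695). G6pc2, an islet glucose-6-phosphatase, fell by 1.80, and Mafa, the factor of mature beta cells, by 1.35, from 28.7, 33.3 and 31.3 CPM to 10.6, 10.6 and 15.6 CPM (edgeR adjusted p = 0.0192 and 0.0275). The zinc transporter Slc30a8, the granule protein gene Sytl4 and the fatty acid receptor Ffar1 fell by 1.23, 1.11 and 1.06, and Npy, which fetal beta cells make, by 2.56 (edgeR adjusted p = 0.0465, 0.0284, 0.0392 and 0.0369). Pdx1 fell from 41.2, 42.8 and 40.3 CPM to 27.7, 22.7 and 31.8 CPM (-0.60, SE 0.11, edgeR adjusted p = 0.0306). Nkx6-1, which beta cells and their progenitors share, was at 61.1, 57.3 and 51.1 CPM against 59.1, 47.9 and 69.1 CPM, with overlapping groups (0.05, adjusted p = 0.858). Iapp, the peptide stored with insulin, was lower at -0.99 without passing (adjusted p = 0.0882).

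With sex in the fit edgeR called none of the 24 beta cell genes. An unadjusted p under 0.05 was reached by 14 of them and by 2828 of all 19166 tested genes. The median of the 24 was -0.76. Leaving out a control or double mutant replicate 1 left 1 call, leaving out replicate 2 left 2, and leaving out replicate 3 gave 11. DESeq2 called 14 lower and 2 higher, and limma voom 13 lower and 1 higher. Glp1r was called under 14 of the 15 alternatives, Ins2 under 8.

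Granule and prohormone-processing genes, shared by islet cell types, showed 3 falls and 1 rise among 25 tested, with a median of -0.66. Of all genes 0.897% were called lower and 1.24% higher. Cpe, the carboxypeptidase that trims prohormones, fell from 478, 567 and 532 CPM to 301, 282 and 357 CPM (-0.75, SE 0.12, edgeR adjusted p = 0.0151). The granins Scg2 and Scg5 fell by 1.07 and 1.18 (adjusted p = 0.0318 and 0.0395), and Chga, at 401, 525 and 457 CPM against 108, 94.5 and 258 CPM, missed the threshold (-1.59, adjusted p = 0.0522). Vamp2, a vesicle fusion protein used also outside islets, rose by 0.57 (adjusted p = 0.0188). In this list 0 to 2 members were called without any 1 of the libraries other than double mutant replicate 3, and 14 without that one.

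Hormones of the other islet cells did not pass. Glucagon (Gcg) was at 933, 1245 and 1141 CPM against 485, 388 and 925 CPM (-0.88, edgeR adjusted p = 0.115). Somatostatin (Sst) was at 237, 291 and 259 CPM against 141, 162 and 257 CPM (-0.49, adjusted p = 0.248), and pancreatic polypeptide (Ppy) and ghrelin (Ghrl) differed by -0.54 and -0.34 (adjusted p = 0.168 and 0.345). Double mutant replicate 3 was the nearest to control for each of these 4 hormones, and the groups overlapped for Sst, Ppy and Ghrl. Of 16 tested genes of alpha, delta, PP and epsilon cells, the amino acid transporter Slc38a5 rose by 0.90 and the somatostatin receptor Sstr3 fell by 1.35 (adjusted p = 0.0408 and 0.0484). Slc38a5 lost its call without any 1 of the 6 libraries and with sex in the fit (adjusted p = 0.118). Sstr3 lost its call without any 1 library other than double mutant replicate 3, with only the 6 libraries fitted, and with sex in the fit (adjusted p = 0.19).

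Among 25 endocrine transcription factors 1 fell. Pou3f4, a factor of alpha cells, went from 3.55, 4.00 and 4.12 CPM to 1.44, 1.10 and 1.92 CPM (-1.39, SE 0.24, edgeR adjusted p = 0.0216; 0.141 with sex in the fit, and not called without any 1 control or without double mutant replicate 1). Neurog3, the factor that starts the endocrine program, was at 15.3, 23.1 and 19.3 CPM against 22.5, 15.6 and 30.4 CPM (0.25, adjusted p = 0.572). Nkx2-2, which recruits Grg3, was at 42.2, 45.9 and 40.9 CPM against 37.8, 29.5 and 49.0 CPM (-0.15, adjusted p = 0.655). The groups overlapped for both. Neurod1, which acts downstream of Neurog3, was lower in 3 of 3 libraries without passing (-0.87, adjusted p = 0.0798).

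Of 33 duct genes, 2 fell, against 0.897% of all genes. The keratin Krt23 went from 10.2, 10.3 and 8.80 CPM to 3.14, 3.78 and 4.55 CPM (-1.35, edgeR adjusted p = 0.0135). The water channel Aqp1, which vessels also express, went from 127, 131 and 136 CPM to 80.9, 84.4 and 84.4 CPM (-0.66, adjusted p = 0.0336; 0.174 with sex in the fit). Krt23 lost its call without any 1 control and with sex in the fit (adjusted p = 0.0624), and Aqp1 without any 1 library. The progenitor and duct factor Sox9 was at 106, 104 and 101 CPM against 87.2, 72.5 and 111 CPM (-0.20, adjusted p = 0.43).

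Genes of voltage-gated channels, which set excitability in islet and nerve cells, moved both ways, with 2 rises and 2 falls among 25 tested. Of all genes 1.24% were called higher and 0.897% lower. The T-type calcium channel Cacna1i fell from 17.6, 15.5 and 29.4 CPM to 5.55, 4.56 and 5.37 CPM (-2.01, SE 0.24, edgeR adjusted p = 0.0054). Cacna1g, another T-type channel, rose from 33.2, 33.5 and 39.4 CPM to 54.9, 55.5 and 60.5 CPM (0.69, adjusted p = 0.0195). The accessory subunit Cacna2d2 rose from 2.73, 1.84 and 1.30 CPM to 7.46, 7.50 and 6.49 CPM (1.87, adjusted p = 0.0084), and the sodium channel Scn9a fell by 1.37 (adjusted p = 0.0400). None of the 4 was called by edgeR with sex in the fit (adjusted p 0.0543 to 0.19), and DESeq2 and limma voom called 8 of the list each. Scn9a lost its call without any 1 of the 6 libraries, Cacna1g without any 1 control, and Cacna2d2 without control replicate 2.

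Muscle genes were dominated by 1 library. Of 30 tested cardiac and skeletal muscle genes, all lay above 0 with a median of 5.24, and 1 was called. This was Myh7, a slow and cardiac myosin, with 1 count in the controls and 1051 in the double mutants, a ratio of 860 (exact 95% counting interval 154 to 33986), at 1.68, 13.8 and 0.326 CPM (edgeR adjusted p = 0.0482). Skeletal actin Acta1 was at 0.543, 0.377 and 0.616 CPM in the controls and at 21.9, 892 and 1.35 CPM in double mutant replicates 1, 2 and 3 (adjusted p = 0.0721), and embryonic myosin Myh3 at 4.07, 278 and 0.673 CPM. Without replicate 2 none was called and the median was 1.70, and without replicate 3 there were 12 calls. Carbonic anhydrase Car3, a gene of muscle and fat on the adipocyte list, was at 2.33, 26.1 and 1.29 CPM against 0.125 CPM or less and rose by 6.61 (adjusted p = 0.0338). Without replicate 2 the change of Car3 was 4.16 (adjusted p = 0.0179), and its call was lost without any 1 control, with limma voom and with sex in the fit (adjusted p = 0.177).

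Of 21 smooth muscle genes, Hhip, a binding protein of Hedgehog ligands, rose from 1.54, 1.55 and 0.814 CPM to 4.89, 3.44 and 2.98 CPM (1.53, edgeR adjusted p = 0.0400), and lost its call without any 1 of the 6 libraries and with sex in the fit (adjusted p = 0.211). Myosin Myh11 was at 21.5, 18.7 and 18.3 CPM against 111, 227 and 38.5 CPM and enteric actin Actg2 at 6.35, 4.80 and 3.43 CPM against 42.8, 150 and 11.8 CPM, and neither passed (adjusted p = 0.0576 and 0.0559). The median of the list was 1.26 and fell to 0.67 without replicate 2. Foxa1, Gast, Nkx6-3, Prss1 and Ctrl were all called without replicate 2.

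Lists of other tissues in the organ held few calls. None of 34 mesenchyme genes, 24 endothelial genes, 31 leukocyte genes and 20 globin and erythroid genes was called by edgeR, with medians of -0.02, -0.18, 0.38 and 1.64. At an unadjusted edgeR p under 0.05 these lists held 7, 2, 4 and 6 genes. The same held for 3866 of all 19166 tested genes. In these lists DESeq2 called 1, 0, 1 and 1, and limma voom 0, 0, 1 and 1. The T cell receptor chain gene Cd3e was at 6.30, 3.41 and 4.20 CPM in the controls and at 0.252, 0.206 and 0.449 CPM in the double mutants, with an edgeR adjusted p of 0.0675. Erythroid genes summed to 3550 CPM in double mutant replicate 1 and to 1709 to 2071 CPM in the 5 other libraries. Among 26 genes of neural crest, neurons and Schwann cells the glial gene S100b fell from 8.06, 7.04 and 7.28 CPM to 3.23, 2.57 and 3.61 CPM (-1.25, adjusted p = 0.0195). S100b lost its call with sex in the fit (adjusted p = 0.0692) and without any 1 library other than double mutant replicate 3.

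The signalling pathways that use Groucho repressors showed few calls. Of 33 Wnt pathway genes none was called by edgeR, and the median was 0.19. An unadjusted edgeR p under 0.05 was reached by 6 of them and by 3866 of all 19166 tested genes. Of the 33, DESeq2 called 3 and limma voom 1. The ligand Wnt4 was at 13.5, 15.6 and 13.7 CPM against 17.5, 34.2 and 30.0 CPM (0.93, adjusted p = 0.0704). Of 26 Notch pathway genes 1 fell, and of 26 BMP and TGF-beta genes 2 fell: the activin subunit gene Inhbb, from 5.39, 5.15 and 5.37 CPM to 2.88, 2.68 and 3.29 CPM (-0.85, adjusted p = 0.0321), and the TGF-beta antagonist Skil by 0.37 (adjusted p = 0.0393). Inhbb and Skil lost their calls with sex in the fit, at adjusted p of 0.137 and 0.123. Skil also lost its call without any 1 of the 6 libraries, and Inhbb without any 1 other than double mutant replicate 3. The median of the 26 BMP and TGF-beta genes was 0.26, with 19 above 0 and 7 below. An unadjusted edgeR p under 0.05 was reached by 13 of the 26. In this list DESeq2 called 7 higher and 2 lower, and limma voom 0 higher and 2 lower.

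The Notch gene was Rbpj, the DNA-binding partner of the Notch receptors. Rbpj fell from 44.5, 44.3 and 44.3 CPM to 28.5, 17.8 and 16.4 CPM (-1.09, SE 0.24, edgeR adjusted p = 0.0484), and lost its call without any 1 library other than double mutant replicate 1 and with sex in the fit (adjusted p = 0.213). Its pseudogene Rbpj-ps3, chosen after its values were seen, rose from 0.605, 0.419 and 0.682 CPM to 3.14, 6.66 and 6.92 CPM (3.29, adjusted p = 0.0284), so that counting may have moved reads between these copies. Their sum was 44.9 ± 0.213 CPM in the controls (SD, n = 3) and 26.5 ± 4.47 CPM in the double mutants, a log2 ratio of -0.76. Another such pair was Tdg, a DNA glycosylase, at -1.12, and its copy Gm9855 at 3.82, whose sum differed by -0.36. Ribosomal protein Rpl34 rose by 0.63 while Rpl34-ps1 fell by 2.24, and their sum differed by 0.21. Single values of all 6 are uncertain.

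Proliferation, stress and metabolism showed few single calls. None of 31 cell cycle genes was called by edgeR, and the median was 0.18. An unadjusted edgeR p under 0.05 was reached by 13 of them and by 3866 of all 19166 tested genes. Of the 31, DESeq2 called 3 and limma voom 2, all higher. A change above 0 was seen in 29 of the 31. All double mutant libraries lay above all controls for 13 of them, and for 14.9% of all genes. The proliferation marker Mki67 was at 137, 183 and 229 CPM against 284, 254 and 231 CPM (0.49, adjusted p = 0.145), with the lowest double mutant just above the highest control. None of 25 cholesterol, 28 hypoxia, 30 endoplasmic reticulum, 28 interferon and 15 mitochondrial genes was called by edgeR. Unadjusted p was under 0.05 for 6, 10, 3, 1 and 1 of them, DESeq2 called 3, 2, 2, 1 and 1, and limma voom 2, 0, 2, 1 and 0. Their medians were -0.22, 0.21, -0.16, -0.11 and -0.23, and with sex in the fit 0.01, 0.24, -0.2, 0.14 and -0.33. All double mutant libraries lay below all controls for 12, 2, 10, 2 and 6 genes (14.2% of all genes). They lay above all controls for 0, 8, 2, 0 and 0. The chaperone Hspa8 fell from 651, 770 and 727 CPM to 518, 495 and 510 CPM (-0.50, adjusted p = 0.0322), alone among 24 immediate early and heat shock genes. Hspa8 lost its call with sex in the fit (adjusted p = 0.175) and without any 1 library other than control replicate 1. Metallothioneins Mt1 and Mt2, which bind zinc and copper, were 1.55 and 2.57 higher without passing (adjusted p = 0.114 and 0.0855). The calls in their list of 16 metallothionein and zinc genes went the other way, with 0 rises and 2 falls and a median of -0.16. Slc30a8 fell by 1.23 and Slc39a10 by 0.67 (adjusted p = 0.0465 and 0.0356). Both lost their calls with sex in the fit (adjusted p = 0.2 and 0.19).

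A further group was put together after its values were seen and is given as a description only: 63 genes of splicing regulators and spliceosome-associated proteins. In it 16 rose and none fell, against 1.24% and 0.897% of all genes, and the median was 0.30. All double mutant libraries lay above all controls for 48 of the 63, and for 14.9% of all genes. Luc7l3, a U1-associated protein, was at 81.5, 66.5 and 72.8 CPM against 116, 108 and 112 CPM (0.61, SE 0.08, edgeR adjusted p = 0.00994). Clk1, a kinase of SR splicing proteins, was at 66.3, 53.4 and 69.8 CPM against 107, 101 and 111 CPM (0.75, adjusted p = 0.0358). Leng8 rose by 0.78, Ptbp2, the neural polypyrimidine tract protein, by 0.82, and the U1 protein gene Snrnp70 by 0.57 (adjusted p = 0.0155, 0.0133 and 0.0290). The calls were lost with sex in the fit (0 of 63 by edgeR) and without control replicate 2 or 3 (0 each), and 6 to 9 were called without any other 1 library.

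Against the libraries labelled Grg3 mutant the double mutants differed in 36 genes (0.188%), 25 higher (0.13%) and 11 lower (0.0574%). Both comparisons use the same 3 double mutant libraries. With sex in the fit 4 genes were called between the mutant groups, and 9 to 34 when 1 control or double mutant library was left out. Of the 63 splicing genes 8 were among the 36, with Leng8 at 154, 175 and 182 CPM in the Grg3 mutants (0.88, edgeR adjusted p = 0.0304) and Safb2, a nuclear matrix protein, at 84.1, 85.0 and 81.0 CPM against 118, 124 and 137 CPM (0.60, adjusted p = 0.0299). Gast was lower in the double mutants than in the Grg3 mutants, at 20.7, 19.9 and 17.5 CPM in the latter (-1.15, adjusted p = 0.0478). Clca1, a secreted goblet cell protein, had 170 counts over the Grg3 mutants and 1 each over the controls and the double mutants. Clec3b, which encodes tetranectin and was chosen after its values were seen, was lower in the double mutants than in either group, at 26.5, 27.9 and 28.8 CPM. It was at 42.3 to 54.1 CPM in the controls (-0.77, adjusted p = 0.00824) and at 53.8 to 61.8 CPM in the Grg3 mutants (-1.03, adjusted p = 0.00525). With sex in the fit Clec3b lost its call against the controls (adjusted p = 0.0725).

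Of the 36 genes, 8 lay on chromosome 10, which is 0.897% of its 892 tested genes, against 0.188% of all genes. Between double mutant and control 23 of the 892 were called (2.58%), against 2.14% of all genes. The 8 genes were looked at after their values were seen. Raet1d and Raet1e, which encode ligands of the receptor NKG2D on natural killer cells, and the neighbouring E030030I06Rik were near absent from the double mutants alone. Raet1e was at 2.88, 2.58 and 2.64 CPM in the controls and at 0.162, 0.221 and 0.245 CPM in the double mutants (-3.68, SE 0.27, adjusted p = 0.000307). Raet1d had 250 counts in the controls and 9 in the double mutants, a ratio of 0.0294 (exact 95% counting interval 0.0133 to 0.0568), and E030030I06Rik was at 4.22, 3.41 and 3.43 CPM against 0.0721, 0.0882 and 0 CPM. Between E030030I06Rik and Raet1d (chromosome 10, 22113050 to 22374139) 7 genes were tested, and these 3 were called. The ends of this stretch were set by called genes, so that the count is a description only (2.14% of all genes were called). Raet1e (22158569 to 22374139) overlaps Raet1d and ends at the same base.

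**Figure D5:**
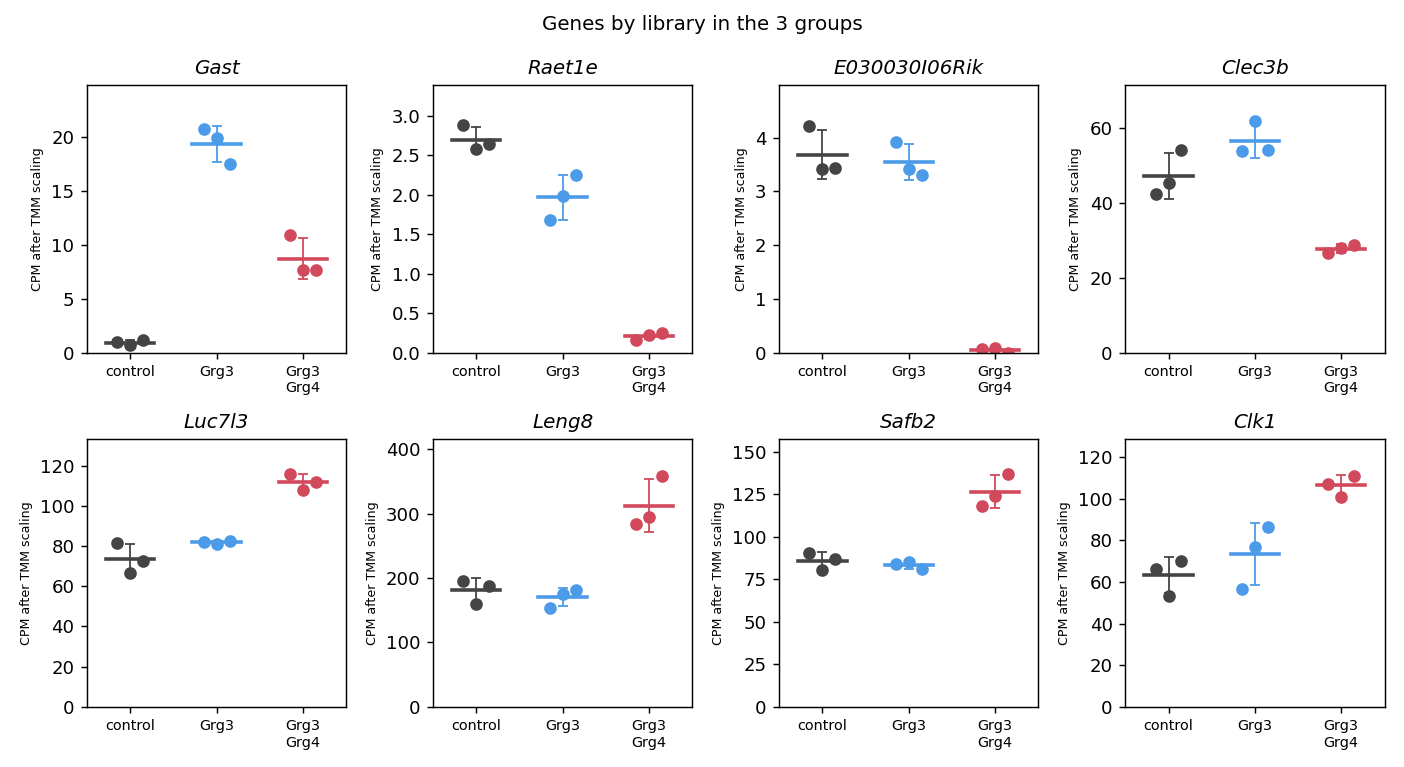
Each panel plots CPM of 1 gene in the 9 libraries on a linear axis from 0, with lines at the mean of each group of 3 and SD bars. Gast lay at 7.61 to 10.9 CPM in the double mutants, between the controls and the Grg3 mutants, and Raet1e at 0.245 CPM or less against 1.68 CPM or more.

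Within 10 Mb of Tle3 8 of 212 tested genes were called (3.77%), and within 10 Mb of Tle4 2 of 280 (0.714%), against 2.14% of all genes. By gene type, 353 of 15356 protein-coding genes were called (2.3%), 195 higher and 158 lower, and 30 of 1640 long non-coding RNAs (1.83%), 25 higher and 5 lower. Of 1506 tested pseudogenes 21 were called. Rps26-ps1 fell from 95.7, 82.8 and 78.0 CPM to 6.91, 6.13 and 6.28 CPM (-3.73, SE 0.11, edgeR adjusted p = 1.29e-07), and it was at 7.15 to 8.29 CPM in the Grg3 mutants. Gm8730, another pseudogene, rose from 19.5, 19.4 and 22.1 CPM to 96.4, 142 and 87.3 CPM (2.42, adjusted p = 0.000711). Both pseudogenes were chosen or named with their values known, and reads from related genes may contribute to them.

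The remaining large falls named by the rule were mixed in kind. The liver carboxylesterase Ces1d fell from 26.1, 26.9 and 28.1 CPM to 5.12, 4.13 and 9.49 CPM (-2.12, SE 0.31, edgeR adjusted p = 0.012). Ces1d lost its call without control replicate 2 or 3 and with sex in the fit (adjusted p = 0.0749). Gabrp, a GABA receptor subunit of epithelia, fell by 2.26 and the glycosyltransferase B3gnt3 by 2.58 (adjusted p = 0.0349 and 0.0448). Gabrp and B3gnt3 lost their calls without any 1 of the 6 libraries and with sex in the fit (adjusted p = 0.166 and 0.173). Stra6, the retinol transporter, was at 6.70, 30.9 and 42.0 CPM in the controls and at 3.80, 5.72 and 2.98 CPM in the double mutants (-2.66, adjusted p = 0.0474). The only male control was nearest to the double mutants for Stra6, and with sex in the fit the change was -2.16 (adjusted p = 0.262). In the Grg3 mutants Stra6 was at 5.23 CPM in the male and at 2.21 and 3.69 CPM in the females. The cause of the spread among the controls was not tested. The pseudogene Gm6166 was also uneven among the controls, at 36.8, 1.42 and 35.4 CPM, the lowest being a female. Of genes called under all alternatives, Cldn11, a tight junction protein, rose from 1.71, 2.14 and 1.63 CPM to 6.31, 8.04 and 8.04 CPM (2.03, adjusted p = 0.0035), and the prostaglandin receptor Ptger3 fell from 37.4, 32.2 and 27.0 CPM to 14.1, 13.2 and 16.3 CPM (-1.15, adjusted p = 0.00677). For Cldn11 and Ptger3 the groups lay well apart.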

How the data were processed

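RNA-seq of whole embryonic pancreas was analysed from the deposited files, in which the authors give unnormalized read counts for each gene symbol. Per the submitters' processing notes, HISAT2, HTSeq, bedtools, Trim Galore, FastQC and DESeq2 were used, with no role or version stated, on mm10 and GRCm38. The sources used here do not say which annotation was counted, or whether by strand, so that overlapping and antisense genes cannot be told apart. The 5 rows that name no gene held 30.7% to 33.2% of the reads of the 6 libraries and were left out.

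Genes were tested with the 2-sided quasi-likelihood F test of edgeR 4.0.16 (R 4.3.3) with TMM scaling, filterByExpr (minimum count 10, total 15) and 1 fit with a mean per group over all 9 libraries, which share 1 estimate of the spread. Benjamini-Hochberg adjustment was over 19166 genes, with a threshold of 0.05. CPM are gene counts scaled to the TMM-adjusted library total. For genes under 10 counts in a group the ratio of summed counts is given with an exact binomial 95% interval, which covers counting error only. Positions are from GENCODE on GRCm38 and may differ from the annotation counted, and promoters are from RefSeq, which had an entry for 109 of 140 genes tabulated. The test was checked on counts simulated with the fitted spread, with 100 genes changed 2-fold and 100 changed 4-fold. It called 71 and 95 of these with the right sign, and 8 unchanged genes. The simulation held no sex imbalance and no library rich in muscle RNA, so that it cannot speak to those limits. Alternatives (15) were DESeq2 1.42.0 size factors, enzymes left out of scaling, no filter, 1 CPM in 3 libraries, a replicate block, only the 6 libraries, embryo sex as a term, the DESeq2 Wald test, limma 3.58.1 voom with quality weights, and each of the 6 libraries left out.

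The named genes are the Tle genes, the genes usually studied in islets and acini, the called genes with the 15 steepest rises and 15 steepest falls (minimum mean of 5 CPM in 1 of the groups, no library of one group within the range of the other), and up to 4 genes of smallest p per list. Members, lists and rules were chosen with earlier results of these data known. Log2 changes, CPM and list counts were computed here from the deposited counts. The values of 1 gene are not reported here.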

Additional observations from a re-analysis of the deposited data

How the results depend on the processing

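The number of genes called between double mutant and control was 410 (238 higher, 172 lower; 36 against the Grg3 mutants). With no filter it was 930 (591, 339; 228), with 1 CPM in 3 libraries 476 (75 against Grg3), with only the 6 libraries 750 (412, 338), with the DESeq2 Wald test 1454 (845, 609; 880), with limma voom 1033 (551, 482), and with embryo sex as a term 30 (15, 15; 4). With the replicate block it was 254 (150, 104; 11); the replicate numbers do not pair the samples, since deviations of same-numbered libraries correlated at -0.09, -0.01 and 0.03, and not every library correlated best with its own number. Leaving out 1 library gave 50 to 320 calls, 21 to 142 higher and 26 to 178 lower, and 9 to 34 against Grg3. The share of calls that were higher was 58% and ran from 38.2% without control replicate 2 to 66.9% without double mutant replicate 2. Of the 410 genes, 29 were also called with sex in the fit and 149 without double mutant replicate 2. Of 100 called genes tabulated for the text, 19 kept their call with sex in the fit and 24 kept it without each of the 6 libraries in turn. DESeq2 size factors and leaving enzymes out of the scaling gave 407 and 414 calls. Values near 0 changed sign when 1 library was left out: Nkx6-1 was -0.01 without control replicate 3 and ranged from -0.08 to 0.18 without double mutant replicates 3 and 2, Neurog3 from -0.01 to 0.46 (same replicates), Nkx2-2 from -0.35 to 0.01 (same replicates), and Ptf1a from -0.01 without double mutant replicate 1, over 0 without control replicate 3, to 0.08 without double mutant replicate 2. The cause of these shifts was not tested. Sex and genotype overlap, since all 3 double mutants were male and 1 of 3 controls was, so that the sex term rests on few embryos. Genes under 1 CPM rest on few counts, and depth limits their precision.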
